A study of Macaca mulatta with 30 samples.

Results

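The insulin-like growth factor (IGF) system was examined through its 2 ligands (IGF1 and IGF2), the acid-labile subunit IGFALS and the 7 IGF binding proteins IGFBP1 to IGFBP7. These 10 genes were taken by name from a table of 21292 genes, and all 10 were present. Their levels were read in 5 tissues of 6 rhesus macaques (Macaca mulatta): liver, pancreas, and the parotid, submandibular and sublingual salivary glands. Animals 1 to 4 were female and animals 5 and 6 male, and each gave 1 flash-frozen sample of every tissue, so that 30 RNA sequencing libraries entered the comparisons. The labels name no treatment, genotype or age for any group. The series design set salivary glands against pancreas, and pancreas against liver, within the same animals.

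IGF1 and IGF2 are small secreted proteins related to proinsulin that signal mainly through the receptor IGF1R. In blood nearly all of either ligand is bound to an IGFBP, and IGFALS locks a ligand with IGFBP3 or IGFBP5 into a large complex that stays in the circulation. Growth hormone drives IGF1 and IGFALS transcription in hepatocytes, insulin suppresses IGFBP1 transcription there, and salivary glands and pancreas are exocrine organs in which IGFs are mostly regarded as local signals.

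Values are in TPM, a transcript level scaled for length and for the library's total, so levels of different genes can be set side by side within a library. Sequencing depth is unknown, because every library sums to the same total. Between 16942 and 18574 genes were above 0 in a library, and the 10 most abundant genes took 11.1% to 81.4% of its TPM. A rise in those genes lowers every other gene's TPM. Differences were tested with limma on log2(TPM + 1) over 13550 genes that reached 1 TPM in at least 6 libraries, with the animal as a block. All 10 IGF genes passed that filter, and each also reached 1 TPM in at least 6 libraries outside its highest tissue. A gene was called when its adjusted p was below 0.05. The tissue pairs share libraries and are therefore not independent.

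Most labels matched their defining markers, and 5 libraries stood apart. The pancreas library of animal 4 had a summed level of 2859 TPM over the 7 measured acinar markers, against 118230 to 263610 TPM in the other pancreas libraries. The submandibular library of animal 4 had 914 TPM of the salivary protein gene SMR3B, against 103270 to 152350 TPM in the others. Skeletal muscle markers summed to 69853 TPM in the parotid library of animal 6, and to 7410 and 23235 TPM in the sublingual libraries of animals 1 and 5. These are the 3 libraries with skeletal muscle left out below. The parotid library of animal 1 also held muscle transcripts, at 4986 TPM against 57.3 to 279 TPM in parotid animals 2 to 5. It was kept in the runs without the libraries with skeletal muscle. In addition, the sublingual library of animal 4 had the lowest salivary marker sum of its tissue, 5631 TPM. The other sublingual libraries had 48353 to 459060 TPM, and the liver libraries, at 7246 to 10723 TPM, were also above it. That library was not counted among the 5, and only the run without animal 4 left it out. Over all 10 tissue pairs 41 of 100 tests of IGF genes were called, beside 28% of tests over all genes. Without the pancreas and submandibular libraries of animal 4 all 41 calls remained and 18 more passed, and without the 3 libraries with skeletal muscle 37 remained and 4 more passed. The shares over all genes moved too. They were 42.7% for liver pairs, 13.1% for pancreas against glands and 23.3% between glands. In the same order they became 58.4%, 27.7% and 42.2% in the first run, and 47.8%, 16.3% and 12% in the second. In bulk tissue, fewer cells of a type and less RNA per cell cannot be told apart.

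Liver held the highest level of 7 of the 10 genes. IGF1, IGF2, IGFALS and IGFBP1 to IGFBP4 were higher in liver than in every other tissue, whereas IGFBP5, IGFBP6 and IGFBP7 had their highest median in the sublingual gland. Over the 4 pairs that involve liver, 29 of 40 tests of IGF genes were called higher in liver and 1 lower, beside 35.2% higher and 7.46% lower over all genes tested. By pair, 7 genes were higher in liver than in pancreas (23.6% of all genes), 8 higher than in parotid (53.4%), 7 higher than in submandibular gland (45.1%), and 7 higher than in sublingual gland (18.7%), where 1 was lower (12.8%). The median difference of the 10 genes was 3.64 (log2) against pancreas, 5.03 against parotid, 4.33 against submandibular and 3.61 against sublingual. The same medians over all genes were 0.36, 0.84, 0.70 and 0.10, and lay between -0.01 and 0.04 when libraries were rescaled by a trimmed mean of ratios. On that scale the medians of the 10 genes were 3.21, 3.94, 3.44 and 3.41. There 28 of the 40 tests were called higher in liver and 5 lower (23.7% and 19.1% over all genes), and after quantile normalisation 28 higher and 7 lower (20.3% and 25% over all genes). The 7 genes named first kept all 4 calls on either scale.

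**Figure D1:**
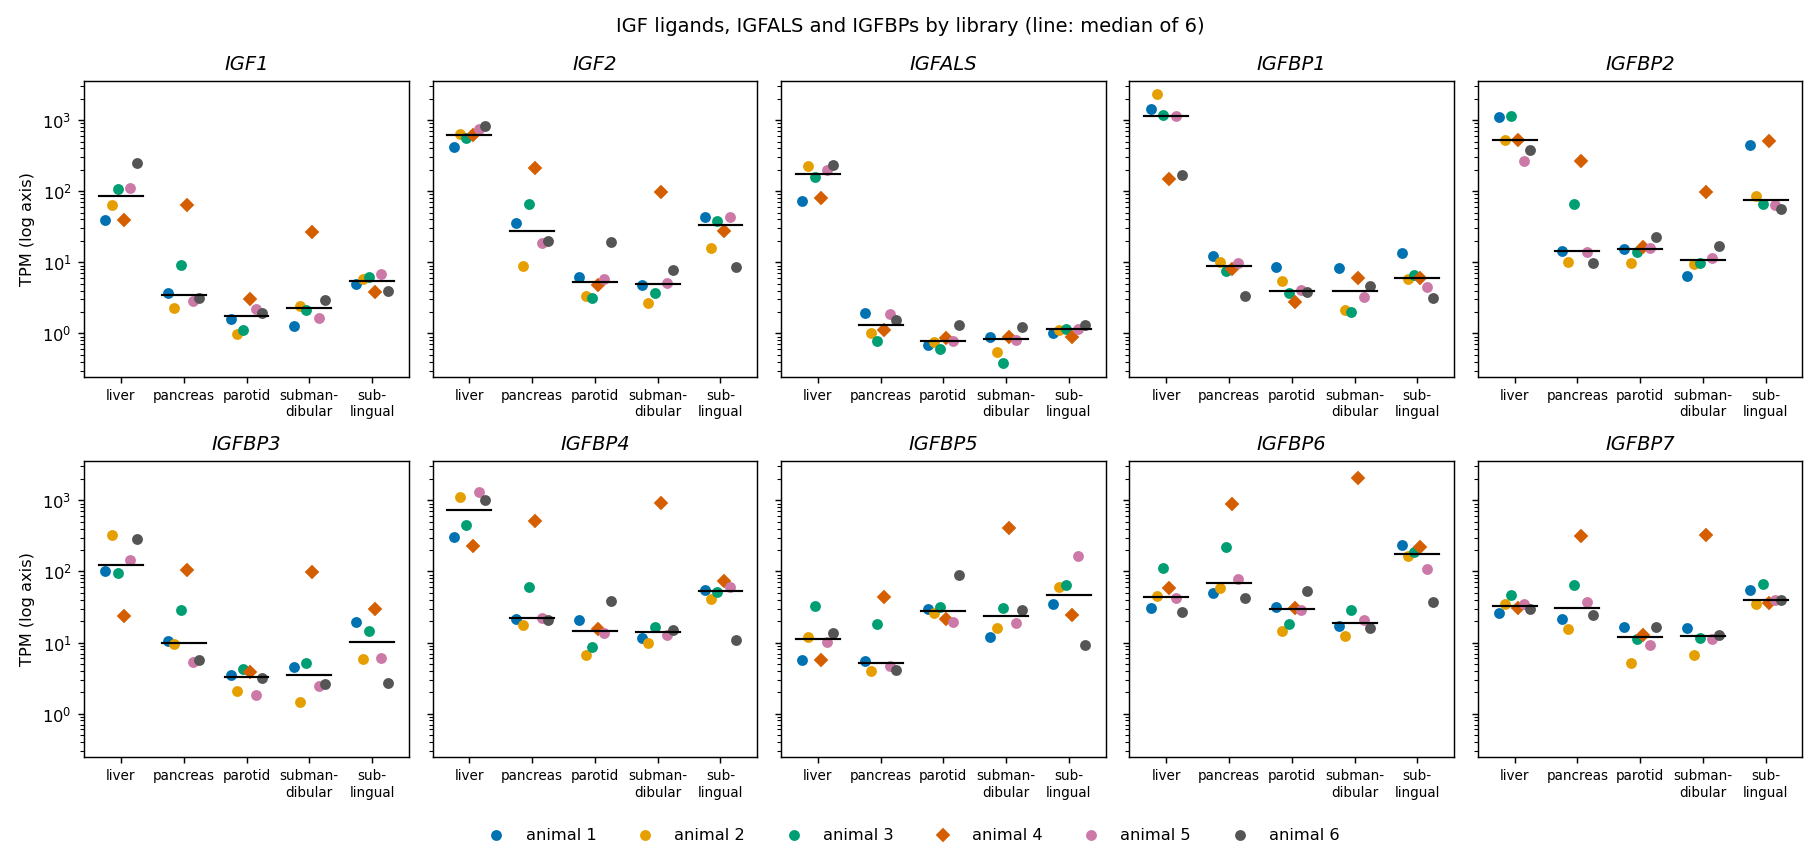
Level of each of the 10 IGF genes in TPM (log axis) in the 30 libraries, by tissue. Points are animals, diamonds mark animal 4 and lines mark the median of 6. Liver points of IGF2, IGFALS and IGFBP1 lie above all others. The pancreas and submandibular diamonds are the highest of their tissue for 8 genes but not for IGFALS and IGFBP1.

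IGF2 was the more abundant ligand in every library. In liver its lowest, median and highest levels were 415, 627 and 816 TPM. The 24 libraries of the other tissues ran from 2.67 to 215 TPM, so the groups did not overlap. The median was 33.0 TPM in sublingual gland (8.55 to 43.7), 27.7 in pancreas (8.92 to 215), 5.25 in parotid (3.12 to 19.1) and 4.91 in submandibular gland (2.67 to 97.0). In that order the steps from liver to sublingual gland and from pancreas to parotid passed the test, and the other neighbouring steps did not. The difference of liver from parotid was 6.51 ± 0.59 (log2, SE, limma adjusted p = 8.34e-10), and liver was higher in 6 of 6 animals. The smallest of the 4 liver differences, from pancreas, was 4.11 ± 0.59 (adjusted p = 3.71e-06).

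IGF1, the ligand best known as the effector of growth hormone, was lower than IGF2 but ordered the tissues in a similar way. Liver levels of animals 1 to 6 were 39.1, 63.8, 107, 39.1, 110 and 247 TPM. The medians elsewhere were 5.39 TPM in sublingual gland (3.77 to 6.94), 3.42 in pancreas (2.26 to 64.8), 2.27 in submandibular gland (1.27 to 26.9) and 1.75 in parotid (0.981 to 3.00). Only the step from liver to the sublingual gland, 3.74 ± 0.55 (log2, SE, limma adjusted p = 4.71e-06), passed among neighbours. Liver did not overlap with the 3 glands, but it did with pancreas, where animal 4 had more IGF1 (64.8 TPM) than in its own liver (39.1 TPM). The difference of liver from pancreas was 3.48 ± 0.55 (adjusted p = 1.58e-05) and was seen in 5 of 6 animals. The ratio of IGF2 to IGF1 had a median of 8.50 in liver (3.30 to 15.6), 6.49 in pancreas (3.32 to 9.53), 6.22 in sublingual gland (2.15 to 8.72), 3.08 in parotid (1.58 to 9.97) and 2.89 in submandibular gland (1.10 to 3.72). These ratios overlapped between tissues.

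IGFALS and IGFBP1 were the genes most restricted to liver in level. IGFALS was at 73.7, 228, 158, 80.1, 196 and 236 TPM in the livers of animals 1 to 6 and between 0.381 and 1.91 TPM in all other libraries. Its medians were 1.33 TPM in pancreas, 1.13 in sublingual, 0.838 in submandibular and 0.776 in parotid gland, and no step among those 4 tissues was called. The liver differences were 5.98 to 6.38 (log2, SE 0.25), with limma adjusted p from 1.19e-17 to 6.08e-17, in 6 of 6 animals for each pair.

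IGFBP1, which binds free IGF and is under acute insulin control in liver, reached 1418, 2296, 1171 and 1151 TPM in the livers of animals 1, 2, 3 and 5. The livers of animals 4 and 6 had 147 and 167 TPM. The lowest liver value was still above the highest value elsewhere, 13.7 TPM in the sublingual gland of animal 1. Medians were 8.87 TPM in pancreas, 5.99 in sublingual, 4.00 in parotid and 3.92 in submandibular gland. None of the steps among these tissues was called. Liver differences were 6.27 to 7.13 (log2, SE 0.44), with limma adjusted p from 2.67e-13 to 5.24e-12.

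The levels of IGFALS and IGFBP1 outside liver were compared with those of hepatocyte markers. The median of IGFALS was 0.438% (parotid) to 0.751% (pancreas) of its liver median, and that of IGFBP1 was 0.338% (submandibular) to 0.764% (pancreas). The 8 hepatocyte markers (ALB, APOA1, APOB, TTR, FGB, HP, SERPINA1 and CYP2E1) had medians of 0.844% in pancreas, 0.601% in parotid, 0.635% in submandibular and 0.805% in sublingual gland on the same scale. For both IGF genes the order of the 4 tissues by this percentage began with pancreas and the sublingual gland, as it did for the marker medians. IGF2 was at 4.41% of its liver median in pancreas and 5.27% in sublingual gland, and at 0.837% and 0.783% in parotid and submandibular gland. The salivary gene SMR3B stood at 2670 to 4269 TPM in the 6 liver libraries. What part transcripts of liver origin have in the low values outside liver, or those of salivary origin in the liver values, was not tested.

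**Figure D2:**
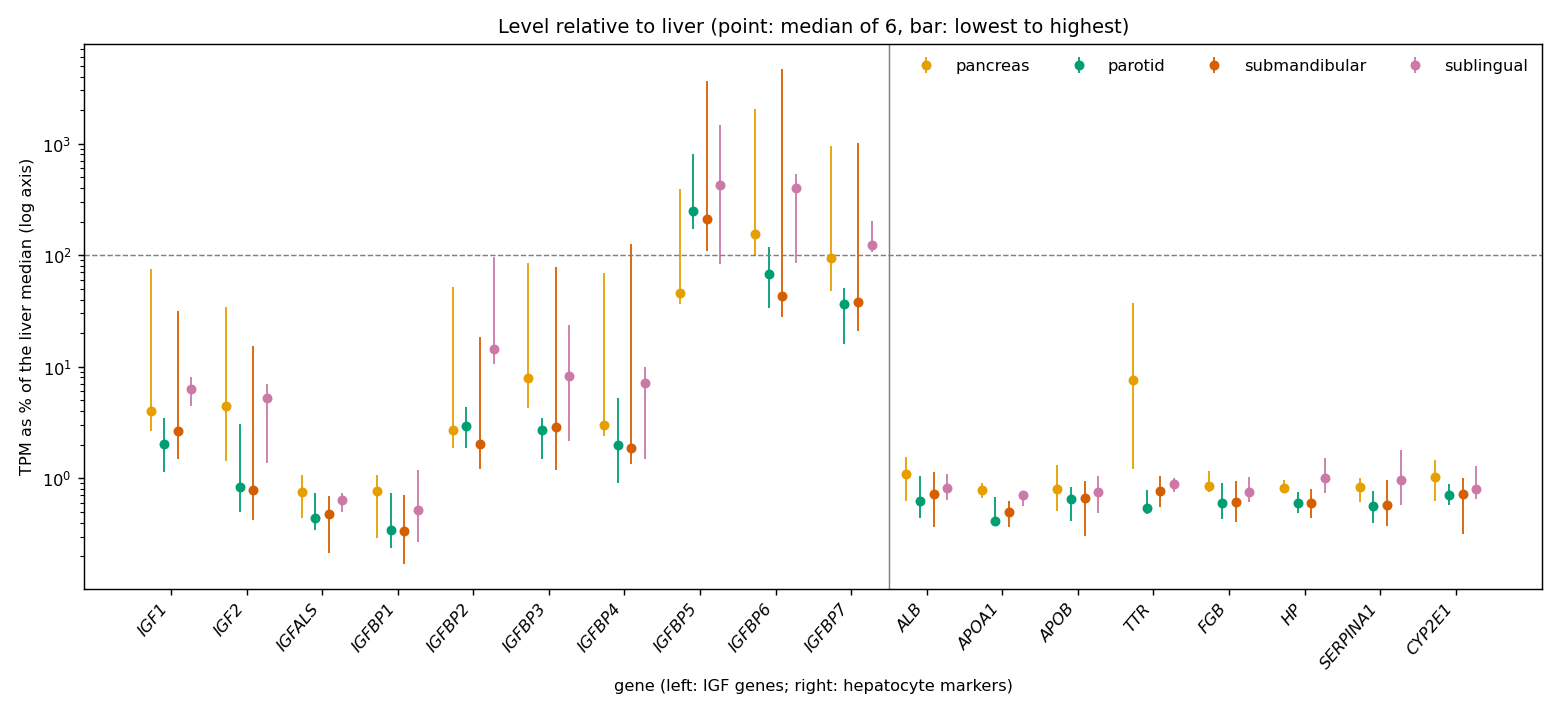
Level in each tissue outside liver as a percentage of the gene's liver median (log axis, dashed line at 100%), for the 10 IGF genes (left) and 8 hepatocyte markers (right). Points are medians of 6 libraries and bars run from lowest to highest. IGFALS and IGFBP1 lie at 0.338% to 0.764%, beside most hepatocyte markers, whereas IGFBP5 reaches 427% in the sublingual gland.

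IGFBP2, IGFBP3 and IGFBP4 were higher in liver in all 4 pairs but were also well above 1 TPM elsewhere. IGFBP2, an abundant serum binding protein, had 269, 526 and 1139 TPM in liver (lowest, median, highest). The sublingual gland followed at 55.9, 75.9 and 506 TPM, then parotid at 9.72, 15.6 and 23.0, pancreas at 9.75, 14.4 and 270, and submandibular gland at 6.40, 10.7 and 96.6. The steps from liver to sublingual gland, 2.13 ± 0.58 (log2, SE, limma adjusted p = 0.00522), and from sublingual gland to parotid passed the test. The sublingual libraries of animals 1 and 4 had 446 and 506 TPM, and the other 4 had 55.9 to 85.2 TPM. Those 2 libraries also had the lowest salivary marker sums of the tissue, 48353 and 5631 TPM, and the part of this in the sublingual level was not tested.

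IGFBP3, the main carrier of IGF in blood, was at 101, 324, 95.1, 23.3, 147 and 290 TPM in the livers of animals 1 to 6. Its median was 10.2 TPM in sublingual gland (2.69 to 29.2), 9.91 in pancreas (5.28 to 105), 3.55 in submandibular gland (1.45 to 97.7) and 3.32 in parotid (1.83 to 4.28). Liver was higher by 2.95 ± 0.71 (log2, SE) than pancreas (limma adjusted p = 0.00208) and by 4.93 ± 0.71 than parotid (adjusted p = 2.45e-06). Animal 4 was the exception: its liver, at 23.3 TPM, was below its pancreas, submandibular and sublingual libraries, so that liver was higher in 5 of 6 animals in those 3 pairs. Without the pancreas and submandibular libraries of animal 4, IGFBP3 stayed called in all 4 liver pairs.

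IGFBP4, a binding protein that mostly restrains IGF action until it is cleaved, had 307, 1122, 456, 231, 1297 and 1026 TPM in the livers of animals 1 to 6. The sublingual gland had a median of 53.1 TPM (10.99 to 74.2), pancreas 22.0 (17.7 to 509), parotid 14.6 (6.72 to 39.0) and submandibular gland 13.9 (9.94 to 927). The liver differences ran from 3.79 ± 0.79 (log2, SE) against pancreas (limma adjusted p = 0.000465) to 5.25 ± 0.79 against parotid (adjusted p = 4.44e-06). Only the step from liver to the sublingual gland was called among neighbours in this order.

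IGFBP5, IGFBP6 and IGFBP7 did not follow the liver pattern. IGFBP5, the other binding protein able to join the complex with IGFALS, had medians of 47.2 TPM in sublingual gland (9.12 to 162), 27.7 in parotid (19.2 to 90.0), 23.5 in submandibular gland (12.1 to 403), 11.1 in liver (5.64 to 32.8) and 5.10 in pancreas (4.04 to 43.7). No neighbouring step in that order passed the test. Liver was lower than the sublingual gland (-1.81 ± 0.68, log2, SE, limma adjusted p = 0.044), in 5 of 6 animals. This call was lost without the 3 libraries with skeletal muscle (-1.12, adjusted p = 0.221), without animal 1, 2, 3 or 5 (adjusted p 0.0732 to 0.177), and with no filter on low genes (adjusted p = 0.0656). Against parotid and submandibular gland the liver differences were -1.41 and -1.5, with adjusted p = 0.0792 and 0.0686. With trimmed-mean scaling both passed, at -2.54 (adjusted p = 4.91e-05) and -2.42 (adjusted p = 9.05e-05), and with quantile normalisation too, at -2.75 and -2.68. Without the pancreas and submandibular libraries of animal 4 the parotid difference passed (-1.41, adjusted p = 0.0105), while the submandibular difference was -0.65 (adjusted p = 0.241). Without the libraries with skeletal muscle the submandibular difference passed (-1.5, adjusted p = 0.0365) and the parotid difference did not (-0.99, adjusted p = 0.165).

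IGFBP6, which prefers IGF2 as its ligand, was at 37.1, 176 and 236 TPM in sublingual gland, 42.8, 68.4 and 888 TPM in pancreas, and 27.2, 43.8 and 113 TPM in liver. Parotid had 14.6, 29.5 and 52.4 TPM and submandibular gland 12.3, 18.9 and 2059 TPM. None of the 4 liver pairs was called. Liver was below pancreas and below sublingual gland in 6 of 6 animals, with differences of -1.23 ± 0.70 (log2, SE, limma adjusted p = 0.193) and -1.52 ± 0.70 (adjusted p = 0.104). When libraries were rescaled by a trimmed mean, these became -1.66 (adjusted p = 0.0086) and -1.67 (adjusted p = 0.00717). Without the pancreas and submandibular libraries of animal 4 the sublingual difference passed (-1.52, adjusted p = 0.00255), while the pancreas difference was -0.72 (adjusted p = 0.153). The direction against submandibular gland depended on those libraries and on the scaling: the difference was 0.20 (adjusted p = 0.831) with them, 1.24 (adjusted p = 0.00995) without them, and -1.27 (adjusted p = 0.0406) with quantile normalisation.

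IGFBP7, a low-affinity relative deposited around blood vessels, had the narrowest liver range of the binding proteins. Its level was 25.9, 32.5 and 47.2 TPM in liver, beside 35.02, 39.8 and 66.0 in sublingual gland and 15.5, 30.7 and 310 in pancreas. Submandibular gland had 6.73, 12.3 and 330 TPM and parotid 5.21, 11.9 and 16.5 TPM. Liver and parotid did not overlap, and liver was higher by 1.49 ± 0.55 (log2, SE, limma adjusted p = 0.0241). That call depended on how libraries were scaled: with the trimmed mean the difference was 0.34 (adjusted p = 0.484) and with quantile normalisation 0.04 (adjusted p = 0.932). It was also lost without animal 2, 3 or 5 (adjusted p 0.0743 to 0.098). Against submandibular gland the difference was 0.69 (adjusted p = 0.307), and 1.49 (adjusted p = 3.74e-05) without the pancreas and submandibular libraries of animal 4, but -0.26 (adjusted p = 0.598) with trimmed-mean scaling. Endothelial markers summed to 39.5 to 87.4 TPM in liver and 5.66 to 18.8 TPM in parotid, and their part in the result was not tested.

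**Figure D3:**
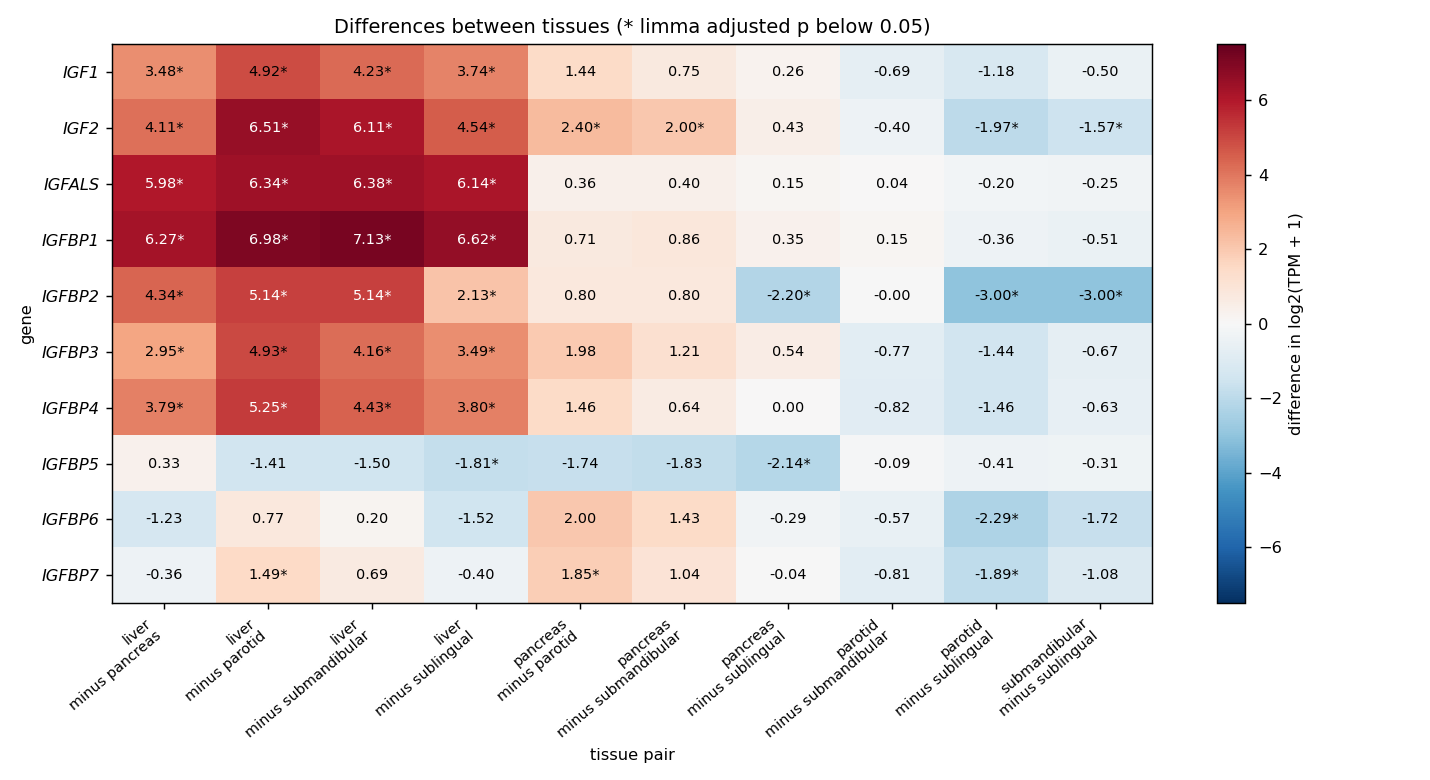
Difference in log2(TPM + 1) between the first and the second tissue of each of 10 pairs, for the 10 IGF genes, from the limma fit with animal as a block. Asterisks mark adjusted p below 0.05, red is higher and blue lower in the first tissue. IGF1, IGF2, IGFALS and IGFBP1 to IGFBP4 are called in all 4 liver columns, and the parotid minus submandibular column has no call.

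The comparison of pancreas with the salivary glands gave 5 calls in 30 tests of IGF genes, or 2 of 10 against parotid (15.8% of all genes), 1 against submandibular gland (9.71%) and 2 against sublingual gland (13.9%). The 3 pairs together had 13.1% of tests called over all genes. IGF2 was higher in pancreas than in parotid by 2.40 ± 0.59 (log2, SE, limma adjusted p = 0.00624) and than in submandibular gland by 2.00 ± 0.59 (adjusted p = 0.0292), each in 6 of 6 animals. IGFBP7 was higher in pancreas than in parotid by 1.85 ± 0.55 (adjusted p = 0.0238), also in 6 of 6 animals. Pancreas was lower than the sublingual gland in IGFBP2 (-2.20 ± 0.58, adjusted p = 0.0095, 6 of 6 animals) and in IGFBP5 (-2.14 ± 0.68, adjusted p = 0.0348, 5 of 6 animals).

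Each of these 5 calls depended on particular animals. The number of calls was 12 without animal 4 (27.8% of tests over all genes), 7 without animal 6 (13.4%), 1 without animal 2 or 3 (7.39% and 7.29%), and 2 without animal 1 or 5 (7.97% and 7.98%). The share of all genes called thus moved with the count. With either rescaling there were 3 higher and 4 lower calls, beside 8.75% higher and 9.51% lower over all genes with the trimmed mean. The IGF2 difference from parotid was lost without animal 3 (2.08, limma adjusted p = 0.0662), and that from submandibular gland without animal 1, 2, 3 or 5 (adjusted p 0.0774 to 0.248) and without the block (adjusted p = 0.0505). The IGFBP7 difference was lost without animal 2, 3 or 5 (adjusted p 0.0567 to 0.123) and without the block (adjusted p = 0.052). The IGFBP2 difference was lost without animal 1 or 2 (adjusted p = 0.0959 and 0.07), and the IGFBP5 difference without animal 1, 2, 3 or 5 (adjusted p 0.0825 to 0.205). Without the 3 libraries with skeletal muscle, the adjusted p of the IGFBP2 and IGFBP5 differences was 0.0665 and 0.229. IGF2 lies beside INS, the insulin gene, in the T2T-MMU8v2.0 assembly. Pancreas IGF2 of animals 1 to 6 was 35.2, 8.92, 65.3, 215, 18.8 and 20.1 TPM, and INS in the same libraries was 11444, 6281, 127240, 408, 10727 and 8898 TPM. Animal 4 thus had the highest IGF2 with the lowest INS, and animal 3 the highest INS with the next highest IGF2.

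IGFBP6 and IGFBP3 were also above parotid in pancreas, by 2.00 ± 0.70 and 1.98 ± 0.71 (log2, SE), but missed the threshold (limma adjusted p = 0.0515 and 0.0573). IGFBP3 did not overlap between these tissues. With the pancreas and submandibular libraries of animal 4 left out, 5 further differences passed, where 27.7% of tests were called over all genes. IGFBP6 was then higher in pancreas than in parotid by 1.49 (adjusted p = 0.012), and than in submandibular gland by 1.96 (adjusted p = 0.00142), against 1.43 (adjusted p = 0.214) with them. IGFBP7 was higher than in submandibular gland by 1.27 (adjusted p = 0.00143), against 1.04 (adjusted p = 0.257). IGFBP5 was lower in pancreas than in parotid at -2.32 (adjusted p = 0.00136), against -1.74 (adjusted p = 0.0806), and than in submandibular gland at -1.56 (adjusted p = 0.0244), against -1.83 (adjusted p = 0.092). Both IGFBP5 differences also passed with trimmed-mean scaling, at -2.51 and -2.39.

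Among the salivary glands every call of an IGF gene involved the sublingual gland. Parotid and submandibular gland had 0 of 10 IGF genes called (0.347% of all genes), 0 at an unadjusted p under 0.05 in limma, and a lowest unadjusted p of 0.157. Parotid was lower than the sublingual gland in 4 of 10 genes (40.6% of all genes) and submandibular gland in 2 of 10 (27.2%), shares near those of all genes. Over the 3 gland pairs 6 of 30 tests were called (23.3% over all genes). The 6 calls became 14 without animal 4 (41.6% over all genes) and 3 without animal 1 or 3 (10.4% and 12.2%). The medians of the 10 genes, -1.45 and -0.65 (log2), stood beside -0.70 and -0.56 over all genes. With trimmed-mean scaling they were -0.50 and 0.05, beside 0.01 and -0.01.

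IGFBP2 gave the largest difference between glands: parotid and submandibular gland were each lower than the sublingual gland, at -3.0 ± 0.58 (log2, SE, limma adjusted p = 0.000435 and 0.000782), in 6 of 6 animals. Neither call was lost under any alternative run. Parotid was also lower in IGF2 (-1.97 ± 0.59, adjusted p = 0.0114), IGFBP6 (-2.29 ± 0.70, adjusted p = 0.0125) and IGFBP7 (-1.89 ± 0.55, adjusted p = 0.00989). With trimmed-mean scaling these were -1.01 (adjusted p = 0.0554), -1.25 (adjusted p = 0.0748) and -0.89 (adjusted p = 0.0986). The IGF2 call was also lost without animal 1, 3 or 5 (adjusted p 0.0556 to 0.0656), and the IGFBP6 call without animal 1, 2 or 3 (adjusted p 0.0535 to 0.0597). IGF1 did not overlap between parotid and sublingual gland and was lower in parotid in 6 of 6 animals, at -1.18 ± 0.55 (adjusted p = 0.0845). It passed without the pancreas and submandibular libraries of animal 4 (adjusted p = 0.00471).

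Submandibular gland was lower than the sublingual gland in IGF2 (-1.57 ± 0.59, log2, SE, limma adjusted p = 0.0489). That call was lost without the block (adjusted p = 0.076), under both rescalings (adjusted p = 0.105 and 0.12), without animal 1, 2, 3 or 5 (adjusted p 0.163 to 0.248) and without the libraries with skeletal muscle (adjusted p = 0.278). The difference of IGFBP6 was -1.72 ± 0.70 (adjusted p = 0.067). Without the pancreas and submandibular libraries of animal 4, 8 of 10 IGF genes were lower in submandibular than in sublingual gland, beside 67.2% of all genes called, and IGFBP6 was at -2.76 (adjusted p = 1.82e-05). Parotid was then lower in 7 of 10 (58.8% called over all genes). Endothelial markers summed to 11.4 to 64.4 TPM in the sublingual gland, 5.66 to 18.8 in parotid and 10.7 to 19.0 in submandibular gland without animal 4. Fibroblast and stroma markers summed to 35.5 to 322, 36.5 to 167 and 28.1 to 71.2 TPM in the same order, and their part in these results was not tested.

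The leading genes of the binding protein pool varied between most tissues, though no test of the shares was made. Parotid and submandibular gland had close median shares, at 28.9% and 25.3% for IGFBP5 and 24.1% and 24.2% for IGFBP6. The 7 IGFBP genes summed to a median of 2973 TPM in liver (1028 to 4353), 450 in sublingual gland (159 to 898), 154 in pancreas (111 to 2134), 97.8 in parotid (69.7 to 228) and 88.4 in submandibular gland (58.1 to 3920). The 2 ligands summed to medians of 685, 38.0, 31.1, 7.76 and 6.37 TPM in the same order. In liver the leading binding protein was IGFBP1 in 3 libraries, IGFBP4 in 2 and IGFBP2 in 1. IGFBP6 led in 6 of 6 pancreas libraries, with 36.5% to 47.6% of the pool. IGFBP5 and IGFBP6 each led in 3 parotid and in 3 submandibular libraries, while the sublingual gland was led by IGFBP2 in 3 libraries, IGFBP6 in 2 and IGFBP5 in 1. The pancreas of animal 4 kept this make-up (IGFBP6 41.6%) although its pool was 2134 TPM. In the submandibular library of animal 4, IGFBP6 took 52.5%, against 16.4% to 27.6% in the other 5.

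**Figure D4:**
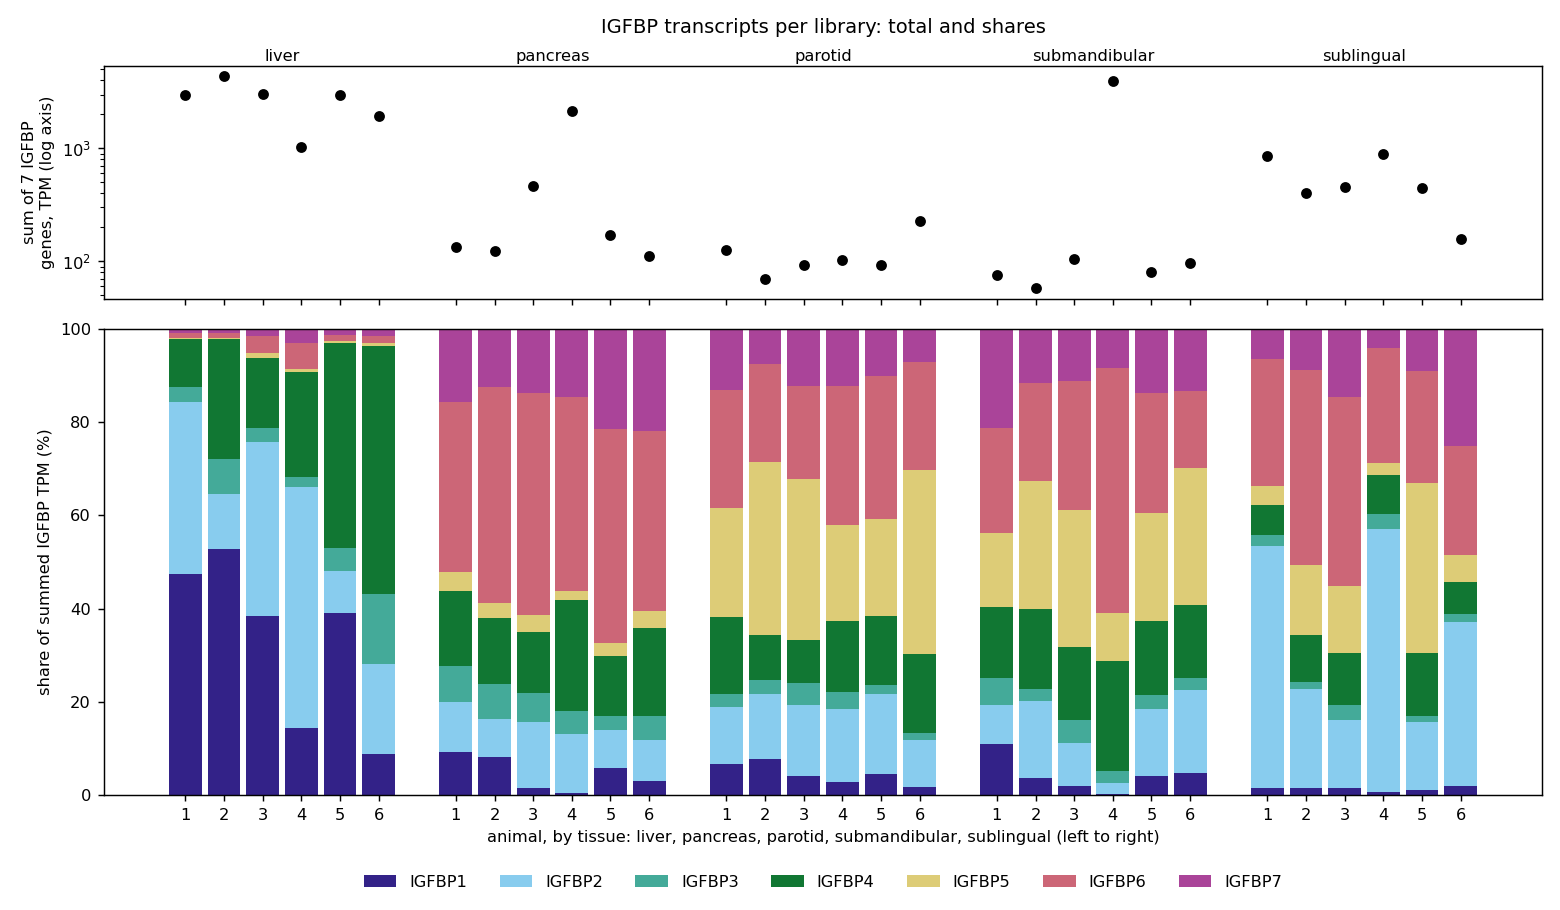
Upper panel: sum of the 7 IGFBP genes in TPM (log axis) in each library. Lower panel: share of each gene in that sum in percent, with animals 1 to 6 from left to right within each tissue. IGFBP1, IGFBP2 and IGFBP4 fill most of the liver bars, IGFBP6 leads all 6 pancreas bars, and animal 4 has the highest pancreas and submandibular sums (2134 and 3920 TPM).

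The libraries of animal 4 carried much of the spread. In its submandibular library IGFBP6 was 120 times the median of the other 5 animals (2059 TPM against 17.2), IGFBP4 73.3 times (927 against 12.6) and IGFBP3 37.2 times (97.7 against 2.62). In its pancreas library IGFBP4 was 23.5 times (509 against 21.7) and IGF1 20.7 times (64.8 against 3.14). IGFALS and IGFBP1 were not raised there, at 0.717 and 0.811 times in pancreas and 1.09 and 1.90 times in submandibular gland. The adipocyte markers (7 of 7 measured) summed to 18343 and 8411 TPM in these 2 libraries, and to at most 1747 and 140 TPM in the other libraries of the 2 tissues. The 8 fibroblast and stroma markers summed to 1176 and 5304 TPM, against at most 212 and 71.2 TPM. Macrophage markers summed to 355 and 1203 TPM, against at most 81.1 and 22.6 TPM. The part of these other cells in the result was not tested.

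The liver libraries differed between animals in a way that set some IGF genes apart. Animals 4 and 6, low in IGFBP1, also had the lowest liver levels of G6PC (28.5 and 37.2 TPM, against 140 to 300 in the other 4) and of PCK1 (107 and 401 TPM, against 573 to 1673). G6PC and PCK1 encode enzymes of glucose production that, like IGFBP1, are repressed by insulin. Both were picked as genes most like IGFBP1 over these same libraries, so their likeness to it in liver gives no separate support. The part of insulin in these levels was not tested. Animals 4 and 6 were at opposite ends for IGF1 (39.1 and 247 TPM). The growth hormone receptor gene GHR was 6.28, 32.0, 5.83, 3.38, 25.0 and 21.3 TPM in the livers of animals 1 to 6. SOCS2, a growth hormone target that dampens receptor signalling, was 19.5, 79.8, 153, 3.48, 35 and 73.9 TPM. The liver of animal 4 was lowest in GHR, SOCS2, IGFBP3 and IGFBP4, and shared the lowest IGF1 level, 39.1 TPM, with that of animal 1. Its IGF2 (611 TPM) and IGFBP2 (532 TPM) lay inside the range of the others. IGF1 was 39.1 to 107 TPM in the 4 female livers and 110 to 247 TPM in the 2 male livers, and with 2 males no test of sex was made.

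The wider pathway was described through 6 lists with 47 genes, of which 40 passed the filter. In the 4 liver pairs, 62 of 160 tests were called higher and 12 lower. Over all genes 35.2% and 7.46% of tests were called. The pathway calls include those of GHR and ADAM12, which passed the filter through liver. They also include those of IGF2BP2, which passed it through pancreas and sublingual gland. With trimmed-mean scaling the 160 tests split into 48 higher and 34 lower, and all genes into 23.7% and 19.1%. By pair, liver was called different from pancreas in 35% of the 40 genes, from parotid in 55%, from submandibular gland in 50% and from sublingual gland in 45%, beside 30.4%, 58%, 50.7% and 31.5% of all genes. Pancreas against the glands gave 13 higher and 2 lower in 120 tests (8.18% and 4.97% over all genes), and the glands against each other 0 higher and 12 lower in 120 (0.593% and 22.7%). Rescaled by the trimmed mean, higher against lower calls were 20 against 13 for pancreas (8.75% and 9.51% over all genes) and 10 against 5 for the glands (5.06% and 5.93%). Of the 101 calls over all pairs 78 remained with that scaling, none of them with the other sign, and 52 tests were called that had not been. The total of 101 calls was 60 to 64 without animal 1, 2 or 3, and 160 without the pancreas and submandibular libraries of animal 4. The share of all genes called in the liver pairs, 42.7%, was then 31.4% to 33.5% and 58.4%.

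Of the receptors IGF1R, IGF2R and INSR, 6 of 12 liver tests were called higher in liver and 2 lower, or 5 and 4 with trimmed-mean scaling. IGF1R, which gave the lower calls, was low in liver, at 0.243 to 0.502 TPM, and lower than in pancreas, at 1.33 to 3.04 TPM, and in sublingual gland, at 0.504 to 3.05 TPM. The differences were -1.22 ± 0.25 (log2, SE, limma adjusted p = 0.000325) and -0.87 ± 0.25 (adjusted p = 0.00744), each in 6 of 6 animals. The tissue with the most IGF1 and IGF2 transcript had less IGF1R transcript than these 2 tissues. Low IGF1R was not particular to liver. IGF1R was also 0.243 to 0.858 TPM in parotid and, without animal 4 (3.12 TPM), 0.311 to 0.759 TPM in submandibular gland. Parotid and submandibular gland had the lowest medians of both ligands. IGF2R, which clears IGF2 and carries lysosomal enzymes, was 10.9 to 14.8 TPM in liver. It was higher in liver than in pancreas (1.34 ± 0.44, adjusted p = 0.0208), parotid (1.30 ± 0.44, adjusted p = 0.014) and sublingual gland (1.27 ± 0.44, adjusted p = 0.0262). With trimmed-mean scaling the parotid difference was 0.23 (adjusted p = 0.507). INSR, the insulin receptor, was higher in liver than in parotid (1.59 ± 0.29, adjusted p = 6.74e-05), submandibular gland (1.42 ± 0.29, adjusted p = 0.000271) and sublingual gland (0.76 ± 0.29, adjusted p = 0.0477, and 0.0581 without the block). With trimmed-mean scaling these were 0.77, 0.71 and 0.61, all still called. INSRR, an orphan relative, was at most 1.01 TPM and was not tested.

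Growth hormone signalling genes were higher in liver in 19 of 36 tests and lower in 1, or 14 and 6 with trimmed-mean scaling. For this list and those that follow, all genes gave 35.2% higher and 7.46% lower calls, or 23.7% and 19.1% with that scaling. GHR was higher in all 4 pairs, most against sublingual gland (3.11 ± 0.50, log2, SE), and SOCS2 likewise, most against parotid (3.37 ± 0.58, limma adjusted p = 2.97e-05). Outside liver GHR reached 1 TPM in fewer libraries than the filter asks, so it entered the test through liver and no p is given for it. Its 4 calls are counted in the 19, which therefore rest in part on a gene that liver admitted to the test. The lower call was SOCS1, another suppressor of cytokine signalling, against the sublingual gland (-1.13). Receptor adaptors were higher in liver in 18 of 32 tests and lower in 0 (16 and 0 with that scaling). They included GRB14, which inhibits the insulin receptor (4.22 ± 0.40 against parotid, adjusted p = 2.15e-09), and GRB10, a related inhibitor (2.48 ± 0.42 against submandibular gland, adjusted p = 2.83e-05, and 1.64 with trimmed-mean scaling).

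The proteases that cut binding proteins, with their inhibitors, were mixed, at 9 higher and 5 lower of 28 tests (7 and 11 with trimmed-mean scaling). CTSD, the lysosomal protease cathepsin D, was higher in liver than in parotid by 2.34 ± 0.53 (log2, SE, limma adjusted p = 0.000724). ADAM12, a membrane metalloprotease, was at 1.88 to 6.81 TPM in liver and at most 0.787 TPM elsewhere. ADAM12 passed the filter only through liver, so no p is given for it. Its calls, with the only higher call against pancreas among them, are counted in the 9. That count therefore rests in part on a gene that liver admitted to the test. The 5 lower calls were STC1, STC2 and HTRA1 against pancreas and STC1 and HTRA1 against sublingual gland, and the HTRA1 calls were lost without the block (adjusted p = 0.074 and 0.086). STC1 and STC2 encode stanniocalcins, which block the protease PAPPA, and HTRA1 encodes a secreted serine protease. PAPPA itself, the main protease of IGFBP4, was at most 0.488 TPM in any library and was not tested. PI3K, AKT and FOXO genes gave 10 higher and 2 lower of 48 tests (6 and 11 with that scaling), with FOXO1, the transcription factor that AKT restrains, at 1.59 ± 0.37 against parotid (limma adjusted p = 0.000756). With trimmed-mean scaling this was 0.88, and CTSD was 1.13. Of the IGF2 mRNA binding proteins only IGF2BP2 was tested, and it was called lower in liver than in pancreas and sublingual gland (-0.91 ± 0.21 against the latter). Its levels were 0.136 to 0.456 TPM in liver, 0.372 to 2.13 TPM in pancreas and 0.137 to 2.46 TPM in sublingual gland. IGF2BP2 reached 1 TPM only in pancreas and sublingual libraries and passed the filter through them, so no p is given for it.

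The genes whose pattern was most like each IGF gene were ranked by Pearson correlation of log2(TPM + 1) over the 30 libraries, among 12300 named genes. These correlations describe libraries that share tissue and animal. Liver libraries hold the highest values of IGF1, IGF2, IGFALS and IGFBP1 to IGFBP4. For IGFBP5, IGFBP6 and IGFBP7 the highest value is in the submandibular library of animal 4 (403, 2059 and 330 TPM). The genes most like IGFALS included C8B and SERPINA11 (r = 0.998 and 0.997), both with high liver levels. IGFBP1 was most like G6PC (0.990), APOA5 (0.983) and PCK1 (0.977). With each gene's tissue means removed, r with IGFBP1 was 0.898 for G6PC and 0.743 for PCK1, against 0.155 for IGFALS. G6PC and PCK1 were picked for their r in these libraries, whereas IGFALS was not.

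IGF2 was most like DECR2 (0.978), HYAL1 and STARD5, and IGF1 was most like UBXN8 (0.967), ACO1 and C2. IGFBP4 was most like SERPINF1 (0.980), EXT1 and RAB32, IGFBP3 most like PXMP2 (0.957), EXT1 and ACSL5, and IGFBP2 most like RMC1 (0.961), PPDPF and BLVRB. The 3 genes without a liver pattern had other companions. IGFBP6 was most like MGP (0.969), the matrix Gla protein gene, FBLN1, which encodes the matrix protein fibulin, and LAMB2, a laminin gene. Without the pancreas and submandibular libraries of animal 4 these were 0.957, 0.912 and 0.906. IGFBP7 was most like GNG11 (0.954), RAMP2 and PRR29, and IGFBP5 most like PIK3IP1 (0.886), CDH13 and PRRX1. Among the IGF genes, the highest correlation over all libraries was between IGFBP3 and IGFBP4 (0.952), followed by IGFALS and IGFBP1 (0.951) and by IGF1 and IGF2 (0.947). With tissue means removed the IGFALS and IGFBP1 value dropped to 0.155, and IGF1 and IGF2 were at 0.810.

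In the T2T-MMU8v2.0 assembly, used here for gene order only, 2 pairs of binding protein genes are direct neighbours. IGFBP1 and IGFBP3 lie side by side on chromosome 3, and both were higher in liver in all 4 pairs. IGFBP2 and IGFBP5 lie side by side on chromosome 12. IGFBP2 was higher in liver than in sublingual gland by 2.13 (log2), while IGFBP5 was lower (-1.81), so these neighbours differed in direction for that pair, within the limits given for IGFBP5 above.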

How the data were processed

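Messenger RNA of 30 frozen tissue samples was sequenced, 1 library per tissue and animal. The authors deposited 1 table of TPM values for 21292 gene names, made with kallisto per the submitters' processing notes, which also list FastQC, MultiQC, cutadapt, HISAT2, SAMtools, featureCounts and DESeq2. The kallisto version, the transcriptome and the genome build are not given in the sources used here. TPM keeps no depth, so no counting interval is given, and 0 per-sample columns were left unused. No 2 libraries were identical (highest correlation 0.979), and each group's 6 libraries come from separate animals.

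The test was limma 3.58.1 (R 4.3.3) with a variance trend on log2(TPM + 1), which understates changes at low levels. It covered the 13550 genes that 6 or more libraries held at 1 TPM or more. The fit held all 30 libraries with tissue and animal, two-sided, and p-values were adjusted by Benjamini-Hochberg over all genes within each of 10 tissue pairs. Tissues of 1 animal are paired by the labels. Deviations from tissue means correlated at 0.161 on average within an animal and -0.0186 between animals. The code was tested on simulated data.

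Members and lists were chosen with earlier results of these data known. Named genes are all members, the receptors, the 2 genes with the largest called liver difference in each other list (with others named after their values were seen, among them SOCS1, STC1, STC2, HTRA1 and PAPPA), the 3 genes most correlated with each member, and markers. Some genes that this rule names are not reported here. Gene order came from a RefSeq table. Alternatives were 2 other scalings (trimmed mean of ratios, quantile), 2 filters, another pseudocount, no trend, no animal block, pairwise fits, leaving out each animal, and leaving out the libraries that stood apart. Python 3.11.15 with pandas 2.3.3 drew summaries.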

Additional observations from a re-analysis of the deposited data

Results flagged for a closer look

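Each gene and tissue was checked for a library far from its group (a gap to the nearest other library that is a larger share of the range than Dixon's critical value for 6). This was met in 13 of 50 sets, where chance alone gives about 2.5. Most of these sets come from the submandibular library of animal 4, which stood apart in its markers, so the sets are not independent. The share over all genes was not computed, and the count cannot be read as particular to the IGF genes.

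In the submandibular gland the library of animal 4 was far above the others for 8 genes. It had 26.9 TPM of IGF1, against at most 2.95 in the others, and 97.0 TPM of IGF2, against at most 7.88. It had 96.6 TPM of IGFBP2 (at most 17.0), 97.7 TPM of IGFBP3 (at most 5.18) and 927 TPM of IGFBP4 (at most 16.5). IGFBP5 was at 403 TPM (at most 30.8), IGFBP6 at 2059 TPM (at most 28.9) and IGFBP7 at 330 TPM (at most 16.1). In the pancreas of the same animal, IGF1 was at 64.8 TPM (at most 9.04 in the others) and IGFBP4 at 509 TPM (at most 60.6).

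The parotid library of animal 6 was the highest in IGF2, at 19.1 TPM (at most 6.21 in the others), and in IGFBP5, at 90.0 TPM (at most 31.8). The sublingual library of animal 6 was the lowest in IGFBP4, at 10.99 TPM, where the others had 40.6 to 74.2. No gene met a rule on opposite directions in females and males (0 of 100 comparisons).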

How the results depend on the processing

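The number of calls in the 4 liver pairs, 30, ranged from 28 to 36 over all alternatives run. Calls of pancreas against the glands, 5 in the fit reported, were 3 with no replicate block (the animal left out of the pairing), 10 with fits on the 12 libraries of each pair, 8 with a pseudocount of 0.1, 10 without the pancreas and submandibular libraries of animal 4, 10 without the 5 libraries that stood apart, and 1 to 12 when animals were left out in turn. Calls between glands, 6, were 3 with quantile normalisation, 2 with trimmed-mean scaling, 15 without the animal 4 libraries, 10 without the 5 libraries, and 3 to 14 when animals were left out. Pathway calls, 101, were 64 with a filter at 5 TPM, 160 without the animal 4 libraries, 165 without the 5 libraries, and 60 to 143 when animals were left out. Without the block the liver, gland and pathway counts were 30, 5 and 95, and the member calls lost were the 3 named above. The share of all genes called moved with these counts, from 13.1% to 27.7% (pancreas) and from 23.3% to 42.2% (glands) without the animal 4 libraries, and to 33.8% and 33.2% without the 5. Of the 55 differences of single IGF genes that were called or named in the text, all but 2 kept their sign under every alternative run. The exceptions were uncalled differences of liver from submandibular gland: IGFBP6, at 0.20, was -0.77 with trimmed-mean scaling, -1.27 with quantile normalisation and -0.15 to 1.26 when animals were left out, and IGFBP7, at 0.69, was -0.26 and -0.61 on the 2 scales. Differences neither called nor named lie outside the 55, and some of them changed sign. IGFBP6, liver against parotid, was 0.77, and -0.41 with trimmed-mean scaling. IGFBP5, parotid against sublingual gland, was -0.41, and 0.63 with that scaling. Leaving out the 5 libraries together was chosen after seeing the data. The unknown depth limits statements on values near 1 TPM, as for IGFALS outside liver.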
